A study of Arabidopsis thaliana with 6 samples.

Results

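A set of 135 probe sets lay lower in leaves of the atrap mutant of Arabidopsis thaliana than in wild type (WT) leaves, with a limited spread among samples of the same genotype. A probe set is a group of short probes on an Affymetrix array that reads 1 transcript or a few alike ones. The set was chosen from the values themselves. An atrap mean at least 1 log2 unit below the WT mean was required, which is a halving of the signal, with the highest atrap array below the lowest WT array. The range of the 3 arrays, highest minus lowest, had to be at most 1 log2 unit in each genotype. Of 22746 probe sets compared, 135 met the rule, or 0.594%, and 126 met its mirror image for higher signal in atrap, or 0.554%. Every difference between genotypes given here for a member is therefore a description and not a test.

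The mutant plants carried the mutation named atrap and the others were WT, with 3 arrays for each, which the labels call biological replicates. Rosette leaves were taken from untreated plants of 3 weeks that grew at 23 °C under days of 12 h light and nights of 12 h. The labels name neither the locus, the kind of mutation, the ecotype nor how many plants were in a sample. Values were log2 levels that ran from 3.12 to 15.01, with array medians between 6.50 and 6.57. With no read depth behind array values, the number of arrays is what limits precision.

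In the gene table ATRAP is an older name of RAP, which encodes a chloroplast protein that is needed to mature the 16S ribosomal RNA of the plastid. Leaves that cannot build plastid ribosomes normally change the expression of many nuclear genes, since plastids signal to the nucleus. Whole leaves hold mesophyll, epidermis, guard cells and veins, so fewer cells of a type and less RNA per cell cannot be told apart in these values. RAP itself was a member. It read 6.72, 6.35 and 6.51 in atrap, against 7.87, 7.44 and 7.76 in WT, a difference of -1.16. Whether the mutation lies in this gene is not stated in the labels.

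Members were paired with genes in 69 cases, with several genes in 2 and with none in the gene table in 64. The 69 were all different genes, each with 1 probe set among those of 1 gene, and 52 of them were assigned a family or role. These 52 comprised 8 redox, lipid and other enzymes, 7 cell wall genes, 7 regulators and signalling proteins, 5 genes of proteolysis and ubiquitin, 4 kinases and leucine-rich repeat proteins, 4 genes of carbon metabolism and sugar transport, and 4 stress-associated genes. The rest were 2 lectins, 2 cytochromes P450, 2 heme-binding proteins and 7 others.

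Over the 135 members the median difference was -1.19, against a median of 0.03 over all 22746. Most lay close to the limit, with 68 between -1.2 and -1 and 116 between -1.5 and -1, and 3 reached -2 or less. The median space between the highest atrap array and the lowest WT array was 0.74, and 21 members had a space of 1 or more. By limma, a test across all probe sets with Benjamini-Hochberg adjustment, 132 of the 135 passed an adjusted p of 0.05, where 6.41% of all probe sets passed as lower. Since the rule used the same contrast, nothing is read from that count.

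**Figure D1:**
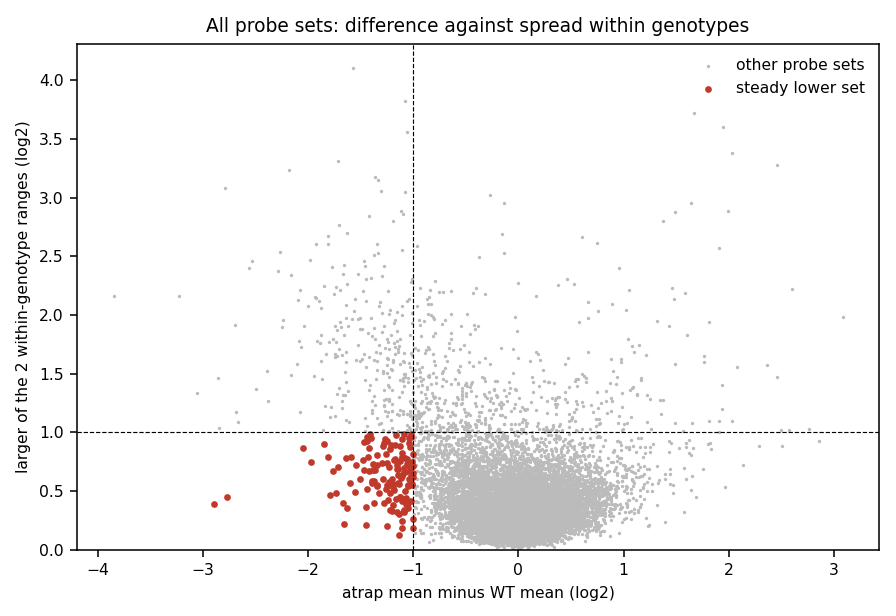
Each point is a probe set, placed by the atrap mean minus the WT mean (x axis, log2) and by the larger of the 2 ranges within a genotype (y axis, log2), and dashed lines mark the limits of -1 and 1. The 135 members (red) fill the lower left field, most of them between -1.5 and -1, while many probe sets with a difference below -1 lie above the range limit.

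The limits passed through a continuous cloud of values. Just inside the difference limit were AT3G52060 at -1.0007 and the probe sets 246620_at and 253606_at at -1.0008 and -1.0017, and just outside it 259312_at lay at -0.99999. Just inside the range limit were 246522_at and AT3G03870, whose WT ranges were 0.990 and 0.988, and just outside were ZCF37 and AT3G25600 with WT ranges of 1.006 and 1.007. The smallest space between genotypes was 0.028, for 266326_at, and that of PPDK was 0.13.

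What the limit on range removed was mostly probe sets with a wide spread among the WT arrays. In all, 397 probe sets had a difference of -1 or less, so the members were 34.0% of them. Of the 262 that were not members, 236 had a WT range above 1, 56 had an atrap range above 1, and 31 overlapped between genotypes. The median WT range of those 262 was 1.61 and their median atrap range 0.46. On the higher side, 126 of 186 probe sets with a difference of 1 or more met the mirrored rule, or 67.7%, with 48 of the other 60 having an atrap range above 1 and 19 a WT range above 1. Because these shares follow from the limits, they are descriptions.

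The arrays also differed in place among the members. Among WT arrays, replicate 1 had the lowest value in 101 of the 135 members, or 74.8%, and in 95.0% of the 262 other lower probe sets. WT replicate 3 was the highest WT array in 81 members, or 60%, and in 82.8% of those 262. In atrap, replicate 2 was the highest array in 75 members, or 55.6%, and the lowest in 42, or 31.1%. Among the 262 these shares were 54.6% and 29%, so this place of atrap replicate 2 was not particular to the members. Such shares over all probe sets were not counted. Without WT replicate 1, 371 probe sets met the rule, among them 130 of the 135. Whichever single array was left out, 81 members kept a difference of -1 or less, and 44 of those were among the 69 genes. A member cannot fail the other limits in this way, since leaving out an array can only narrow a range and widen the space. The 81 therefore say nothing of steadiness.

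**Figure D2:**
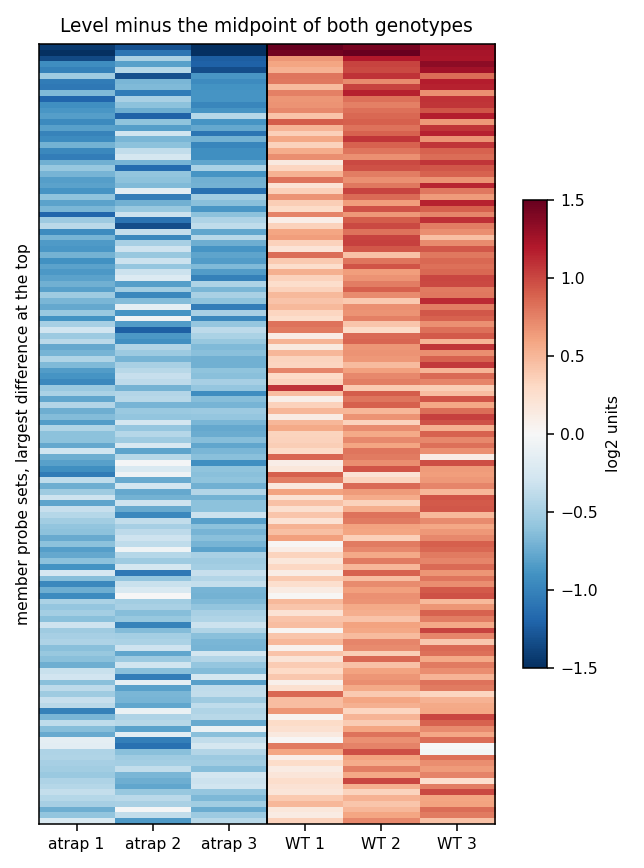
Rows are the 135 members, ordered from the largest difference at the top, and columns are the 3 atrap and the 3 WT arrays. Colour gives the level minus the midpoint of the 2 genotype means (log2), blue below and red above. WT replicate 1 is the palest WT column, and atrap replicate 2 mixes pale and dark cells.

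Among named genes, an enzyme gene had the largest difference. AT5G05200, of the ABC1-type kinase family, read 7.37, 7.79 and 7.34 in atrap, against 10.33, 10.37 and 10.13 in WT, which is 6.84-fold lower in atrap. A probe set with no gene listed, 254716_at, had the largest difference of all members. Its values were 4.69, 4.82 and 4.53 in atrap, against 7.77, 7.55 and 7.38 in WT, a difference of -2.89. The space between its genotypes was 2.56, the widest of the set. The next named genes, AT4G14020 and AT3G19550, have no role given here. AT4G14020 read 6.12, 6.99 and 6.23 in atrap, against 8.13, 8.65 and 8.70 in WT, a difference of -2.05. AT3G19550 read 4.39, 4.52 and 4.12 in atrap, against 5.92, 6.35 and 6.67 in WT, a difference of -1.97. The atrap values of AT3G19550 lie where the scale is compressed.

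Cell wall genes formed a group of 7. Expansins loosen walls as cells grow, GH9 enzymes cut glucans, pectin methylesterases trim pectin, and TBL proteins include enzymes that acetylate wall polymers. EXPA16 read 6.56, 6.17 and 6.34 in atrap, against 7.98, 8.38 and 7.90 in WT, or 3.32-fold lower in atrap. The endoglucanase gene GH9B8 averaged 7.36 ± 0.30 in atrap and 8.75 ± 0.11 in WT (SD, n = 3 each), a difference of -1.39. In TBL38 the atrap values were 6.91, 7.27 and 7.06, against 7.78, 8.49 and 8.64 in WT. The groups of all 3 genes were apart by 0.51 or more.

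A further pair of expansin genes and a pectin methylesterase had differences close to each other. EXLB1 and EXPB1 differed by -1.11 and -1.08, and PME61 by -1.11. AT3G52060, which the gene table names as like an N-acetylglucosaminyl transferase, averaged 9.03 ± 0.32 in atrap and 10.03 ± 0.19 in WT (SD, n = 3 each). Each of these 4 fell short of the difference limit with a certain array left out, EXLB1 at -0.98, EXPB1 at -0.99, PME61 at -0.90 and AT3G52060 at -0.82. Of 18 expansin genes measured, 3 were members, 4 were lower by limma and 1, EXPA15, was higher, and their median difference was -0.05. Over all probe sets, 0.594% met the rule, 6.41% were lower by limma and 6.7% higher. At an unadjusted p under 0.05, 7 expansin genes were lower and 3 higher, where 14.2% of all probe sets were lower and 15.3% higher. Of 15 GH9 genes, GH9B8 was the 1 lower by limma, and of 22 TBL genes TBL38 and TBL15 were lower and TBL37 higher. At an unadjusted p under 0.05, 4 GH9 genes were lower and 0 higher, and 5 TBL genes were lower and 2 higher. Members count among the lower genes of each of these families and were picked on the same contrast, so nothing is read from these counts.

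Protein breakdown was the field of 5 members. Vacuolar processing enzymes are proteases that activate other proteins in the vacuole, and GAMMA-VPE is the form known from leaves while BETA-VPE is known from seeds. GAMMA-VPE read 10.30, 10.60 and 10.40 in atrap, against 11.20, 11.72 and 12.13 in WT. BETA-VPE read 5.89, 6.37 and 6.08 in atrap, against 7.13, 7.04 and 7.61 in WT. The other 2 genes of this family, ALPHA-VPE and DELTA-VPE, differed by -0.07 and -0.10, at atrap means of 4.83 and 4.41 and WT means of 4.90 and 4.51. Values so near the bottom of the scale are compressed and do not show that those 2 transcripts were unchanged.

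The aspartic protease gene AT1G62290 read 6.32, 5.96 and 6.14 in atrap, against 7.12, 7.25 and 7.19 in WT, where its arrays lay close together. A pair of genes of RING finger proteins, a family that includes many ubiquitin ligases, were also members. AT1G26800 averaged 6.39 ± 0.21 in atrap and 7.65 ± 0.45 in WT, and AT5G55970 averaged 6.70 ± 0.26 in atrap and 7.88 ± 0.27 in WT (SD, n = 3 each). WT replicate 1 was the lowest WT array for both.

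**Figure D3:**
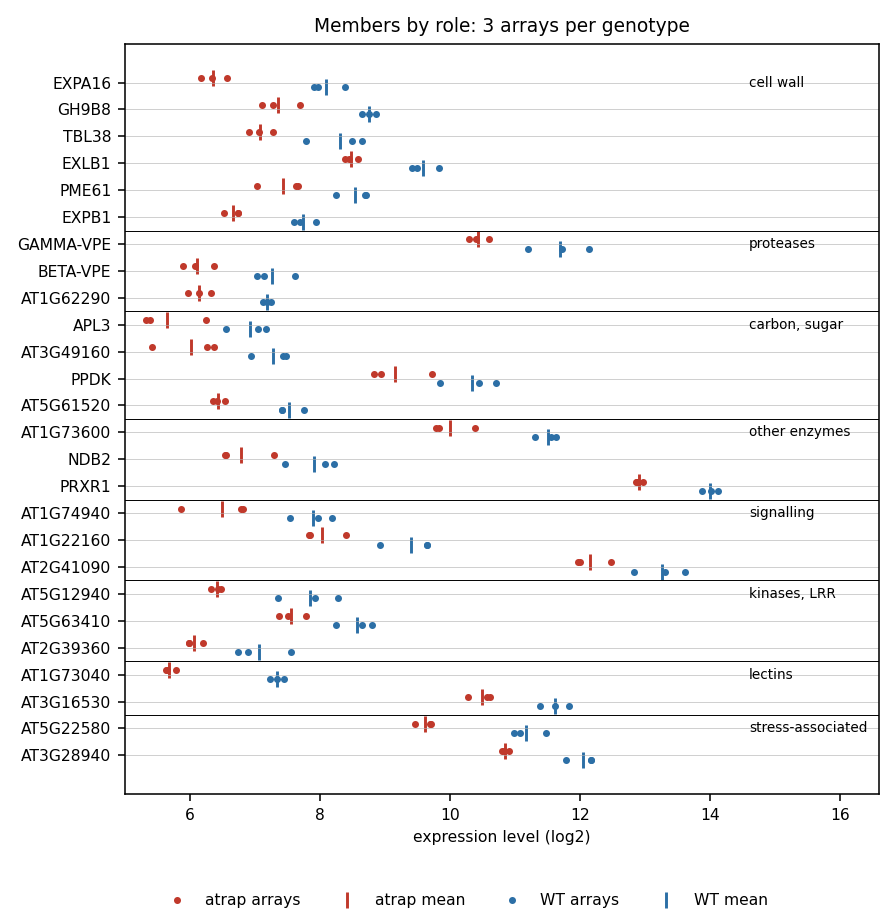
Levels (x axis, log2) of 26 named members grouped by role, with 3 atrap arrays (red) drawn above 3 WT arrays (blue) for each gene, and a vertical bar at each mean. In every row all red points lie left of all blue points, as the rule requires, and the space between them is narrow for PPDK, NDB2 and APL3.

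Carbon metabolism and sugar transport had 4 members. PPDK makes phosphoenolpyruvate from pyruvate, and APL3 is a subunit of the starch enzyme ADP-glucose pyrophosphorylase. PPDK read 8.93, 9.71 and 8.82 in atrap, against 9.85, 10.44 and 10.71 in WT. APL3 read 5.39, 6.24 and 5.33 in atrap, against 6.56, 7.05 and 7.17 in WT. In both, atrap replicate 2 stood nearest to WT. AT3G49160, of the pyruvate kinase family, went the other way in that array, with 6.36, 5.42 and 6.25 in atrap, against 7.43, 6.94 and 7.48 in WT.

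AT5G61520, a sugar transporter gene, averaged 6.43 ± 0.09 in atrap and 7.52 ± 0.20 in WT (SD, n = 3 each). PPDK, AT3G49160 and AT5G61520 fell just short of the limit with a certain array left out, at -0.99, -0.97 and -0.98, while APL3 stayed at -1.11 or lower.

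The enzyme group spanned lipid, redox and respiratory functions. AT1G73600, of the phosphoethanolamine N-methyltransferase family that makes phosphocholine for membrane lipids, read 9.78, 10.38 and 9.82 in atrap, against 11.31, 11.55 and 11.64 in WT, or 2.84-fold lower in atrap. The methyltransferase gene AT2G32160 differed by -1.59. NDB2, an NADH dehydrogenase of mitochondria that bypasses complex I, read 6.53, 7.29 and 6.55 in atrap, against 7.46, 8.07 and 8.21 in WT. Its relatives NDB1, NDB3 and NDB4 differed by -0.33, 0.03 and 0.03. NDB2 was the 1 of 4 past limma's threshold, where 6.41% of all probe sets were lower. NDB1 was also lower without overlap, with 8.41, 8.04 and 8.26 in atrap, against 8.71, 8.53 and 8.47 in WT. Without adjustment, 2 of the 4 were lower and 0 higher at limma's level of 0.05. Over all probe sets, 14.2% were lower and 15.3% higher at that level. NDB2 counts in both tallies and was picked by the rule on the same contrast. Nothing is therefore read from them for the family.

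PRXR1, a class III peroxidase, was the member with the strongest signal. It read 12.88, 12.96 and 12.86 in atrap, against 13.87, 14.02 and 14.12 in WT, and its 2.15-fold difference came with a space of 0.91 between the genotypes. AT5G11930, of the glutaredoxin family, averaged 5.88 ± 0.46 in atrap and 7.18 ± 0.14 in WT (SD, n = 3 each). AT5G02230, of the haloacid dehalogenase-like hydrolases, and AT2G39420, of the alpha/beta hydrolases, differed by -1.14 and -1.04.

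Among regulators, both members of the FCS-like zinc finger family had similar differences. These small proteins bind the energy-sensing kinase SnRK1. AT1G74940 read 6.78, 5.86 and 6.81 in atrap, against 7.53, 8.18 and 7.96 in WT. AT1G22160 read 7.84, 8.40 and 7.83 in atrap, against 8.92, 9.64 and 9.65 in WT. Atrap replicate 2 was thus the lowest atrap array for the first gene and the highest for the second, and the genotypes stayed apart in both.

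A pair of genes with a CCT motif, a domain shared with clock and flowering regulators, were members, at -1.16 for AT5G53420 and -1.09 for AT4G27900. AT3G16800, of the protein phosphatase 2C family, averaged 7.73 ± 0.26 in atrap and 8.99 ± 0.21 in WT (SD, n = 3 each). The calmodulin-like gene AT2G41090 had a strong signal, with 11.96, 12.47 and 12.00 in atrap, against 12.83, 13.31 and 13.62 in WT. Calmodulin-like proteins bind calcium and pass its signal on.

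Kinases and leucine-rich repeat proteins numbered 4, and 3 of them sat near the limit. Receptor-like kinases span the cell membrane and sense signals outside the cell. AT5G12940, a leucine-rich repeat protein without a known kinase part, read 6.33, 6.47 and 6.42 in atrap, against 7.35, 7.93 and 8.27 in WT. AT2G19130, AT5G63410 and AT2G39360 differed by -1.04, -1.01 and -1.01, and with 1 array left out they reached -0.85, -0.89 and -0.76. WT replicate 3 was the highest WT array for all 4 genes.

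Lectins bind sugars, and a pair of lectin genes were members. AT1G73040, of the jacalin-related family, read 5.64, 5.78 and 5.63 in atrap, against 7.23, 7.33 and 7.45 in WT. The legume lectin gene AT3G16530 read 10.28, 10.62 and 10.56 in atrap, against 11.38, 11.62 and 11.83 in WT. The first gene was 3.15-fold and the second 2.18-fold lower in atrap, and the ranges of the first, 0.15 in atrap and 0.22 in WT, were the narrower ones.

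Stress-associated members were AT5G22580 of the A/B barrel family, AT3G28940 of the AIG2-like family, AILP1 and COR15A. AT5G22580 read 9.46, 9.71 and 9.69 in atrap, against 10.98, 11.47 and 11.07 in WT, a difference of -1.55. AT3G28940 was very even in atrap, at 10.85 ± 0.05, against 12.04 ± 0.22 in WT (SD, n = 3 each). COR15A, which protects chloroplast membranes in the cold, read 6.50, 6.98 and 6.30 in atrap, against 7.20, 7.81 and 7.93 in WT, with a narrow space of 0.22 between the genotypes. AILP1, of the aluminium-induced family, read 11.44, 11.43 and 11.41 in atrap, against 12.21, 12.50 and 12.63 in WT, with a space of 0.77.

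The 7 members outside these groups came from mixed families. AT1G80130, with tetratricopeptide repeats, and AT1G62500, of the lipid transfer proteins, differed by -1.54 and -1.28. TUB1 encodes a beta tubulin, a building block of microtubules, and read 6.15, 5.89 and 5.89 in atrap, against 6.94, 7.48 and 7.17 in WT. Of the 4 other beta tubulin genes measured, TUB6 was also lower, by a change of -0.36 (limma, adjusted p = 0.0193), and TUB5, TUB7 and TUB9 did not pass. TUB9, at -0.19, had an unadjusted p of 0.0407 by limma. Of the 5 genes, 3 were lower and 0 higher at an unadjusted p under 0.05. Over all probe sets, 6.41% were lower by the adjusted p, and 14.2% lower and 15.3% higher by the unadjusted p. TUB1 counts among the lower genes and was picked by the rule on the same contrast, so nothing is read from these counts. AT1G55265, which has a domain of unknown function, and AT5G27280 differed by -1.17 and -1.08.

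**Figure D4:**
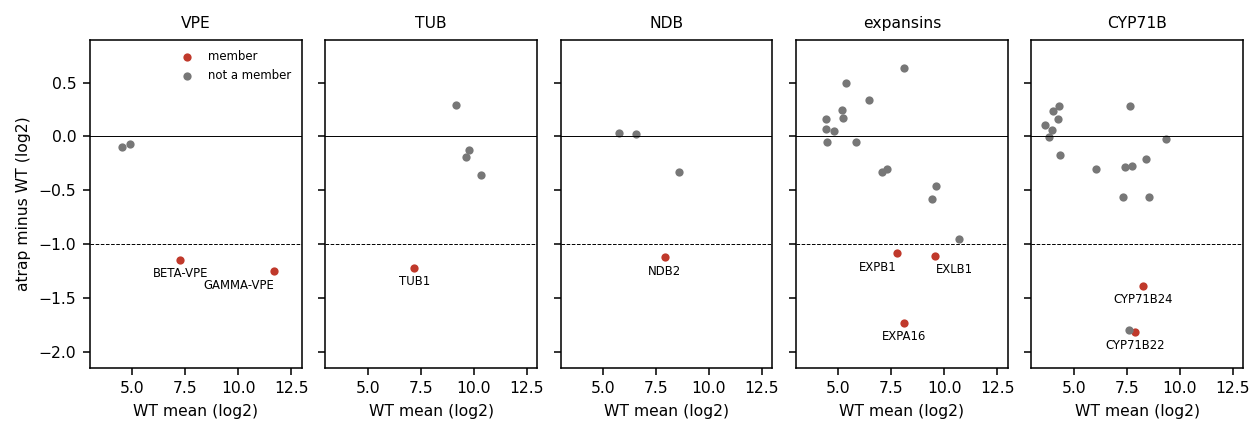
For 5 families with members, each point is a gene, placed by its WT mean (x axis, log2) and its atrap minus WT difference (y axis, log2), with members in red and a dashed line at -1. In the vacuolar processing enzymes (VPE), beta tubulins (TUB) and NDB dehydrogenases all measured genes that are no members lie between -0.4 and 0.3, and the grey point beside CYP71B22 is CYP71B23.

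In gene order, 3 pairs of members lay within 3 protein-coding genes of each other, out of 69 genes placed, and 2 of the pairs were direct neighbours. How often genes lie so close among the 12331 measured genes placed was not counted, so nothing is read from the number of pairs. AT1G67860 and AT1G67865, whose roles are not given here, stood next to each other. AT1G67860 read 9.63, 9.78 and 9.70 in atrap, against 10.82, 11.00 and 11.03 in WT. AT1G67865 read 11.40, 11.52 and 11.22 in atrap, against 12.62, 12.88 and 12.99 in WT. The next gene along, AT1G67870, missed the rule by an atrap range of 1.007, and read 10.19, 10.08 and 9.19 in atrap, against 11.15, 10.90 and 11.13 in WT. The run of 3 genes thus had differences of -1.25, -1.45 and -1.24.

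The genes measured on either side of that run had smaller differences, of -0.41 for AT1G67850, 0.06 for AT1G67855, -0.13 for AT1G67880 and -0.30 for AT1G67890. AT1G67850 was itself lower by limma (adjusted p = 0.0307), and the others did not pass. AT1G67855 was dim in both genotypes, at 4.36 in atrap and 4.30 in WT. Probe sets of similar neighbouring genes can share signal. The part of such sharing in this run, and in the pairs described below, was not tested.

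AT1G78450 and AT1G78460, both of the SOUL heme-binding family, were the other adjacent pair. AT1G78450 read 6.43, 5.89 and 6.53 in atrap, against 7.27, 7.66 and 7.34 in WT. AT1G78460 read 7.83, 7.39 and 7.87 in atrap, against 8.85, 9.07 and 9.15 in WT. Atrap replicate 2 was the lowest atrap array in both. Beyond them AT1G78470 was dim, with atrap minus WT at 0.18. AT1G78480 differed by -0.68 and was lower by limma (adjusted p = 0.0285), with its groups apart by 0.31.

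The third pair was CYP71B22 and CYP71B24, cytochromes P450 with 2 genes between them. CYP71B22 read 6.48, 5.69 and 6.13 in atrap, against 7.80, 8.09 and 7.85 in WT, and CYP71B24 read 6.74, 7.08 and 6.85 in atrap, against 7.93, 8.61 and 8.29 in WT. CYP71B23, which lies between them, had a difference of -1.80 but a WT range of 1.77, with 5.62, 5.89 and 5.86 in atrap, against 6.55, 8.32 and 7.90 in WT. Of 18 CYP71B genes measured, 4 were lower by limma and 0 higher (8 lower and 2 higher at an unadjusted p under 0.05), and 2 were members. Those 2 count among the lower genes and were picked by the rule on the same contrast, so nothing is read from these counts. Over all probe sets, limma called 6.41% lower and 6.7% higher, and 14.2% and 15.3% had an unadjusted p under 0.05 in those directions. A similar case was AT1G64370, a member that read 10.37, 10.68 and 10.31 in atrap, against 11.97, 12.05 and 12.36 in WT. Its direct neighbour AT1G64360 was no member because its WT range was 1.09, and it read 6.19, 6.92 and 6.35 in atrap, against 8.49, 9.40 and 9.57 in WT. Of the 4 other genes measured there, SEH1H, AT1G64355 and AT1G64380 differed by 0.25, 0.19 and -0.00. GH9C2 differed by -0.54 with its groups apart by 0.13 (limma, adjusted p = 0.0501).

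**Figure D5:**
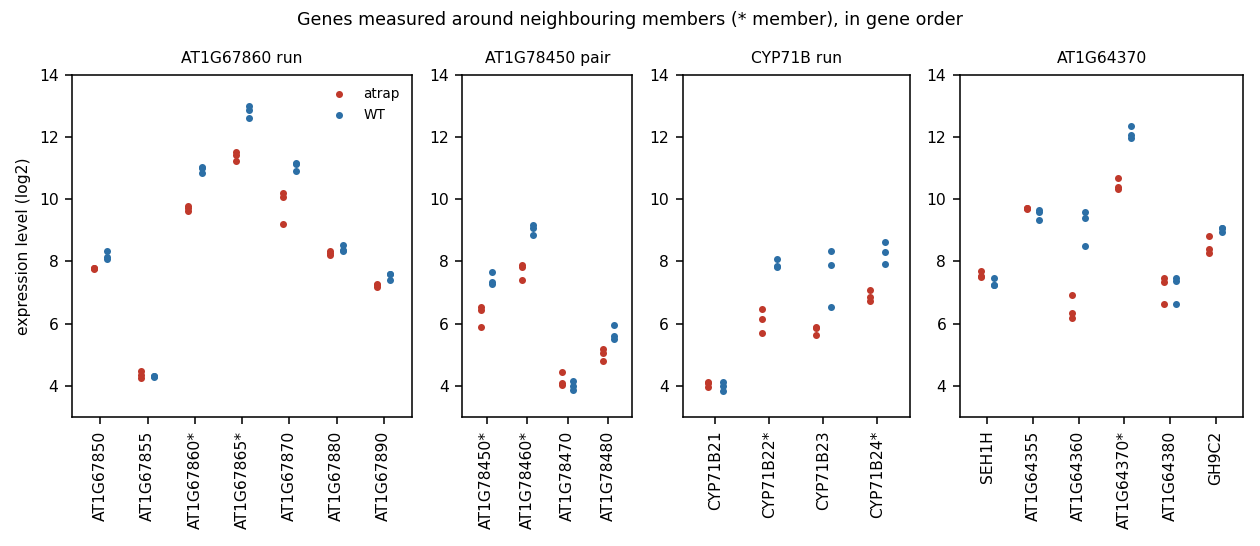
Levels (y axis, log2) of the genes measured around 4 groups of members, in gene order from left to right, with 3 atrap (red) and 3 WT (blue) arrays each, and a star for members. Red and blue points separate for 3 genes in a row around AT1G67865 and overlap for AT1G67855 and AT1G67880, the genes shown next to these. At the outer genes AT1G67850 and AT1G67890 the points are apart again, by 0.26 and 0.12. They also separate for CYP71B22, CYP71B23 and CYP71B24 but not for CYP71B21, the 1 gene shown beside these. Levels of different probe sets are not comparable with each other.

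Some members were steady to a degree well inside the limit. AT3G45160 read 9.89, 9.99 and 9.87 in atrap, against 11.01, 11.08 and 11.06 in WT, so that no genotype spanned more than 0.12. AT4G00780, a TRAF-like gene, read 10.35, 10.36 and 10.33 in atrap, against 11.35, 11.26 and 11.45 in WT. By the larger of the ranges within a genotype, 263715_at, without a listed gene, lay between these genes, at 0.186 against 0.190 for AT4G00780. Next came AT1G67860 at 0.20 and, without a listed gene, 265948_at at 0.21. The median range over all members was 0.40 in atrap and 0.55 in WT, against 0.19 and 0.23 over all probe sets.

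Of the other genes with no role given, AT2G17710 read 7.05, 7.04 and 7.10 in atrap, against 8.37, 8.68 and 8.94 in WT. AT2G18210, AT3G03870, AT5G64550 and AT5G18310 differed by -1.42, -1.41, -1.35 and -1.30. The 64 members with no gene listed had a median difference of -1.19, against -1.22 for the 69 genes. Their atrap means ran from 4.52 to 11.55 and their WT means from 5.94 to 12.64.

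The rule itself favours members with a bright signal in WT, so their WT levels are a description. In WT, 1 member (0.741%) had a mean under log2 6, where values are compressed, against 43.7% of all probe sets, and 32 members (23.7%) had a mean of log2 10 or more, against 9.28% of all. In atrap, 24 members lay under log2 6, where differences are compressed. Probe set names marked as sharing probes made up 2.22% of members and 4.66% of all.

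Of 7 lists of defence, senescence, starvation and handling genes, 20 genes were measured and 1, APL3, was a member. By limma 4 of the 20 were lower and 1, QQS, was higher, where 6.41% of all probe sets were lower and 6.7% higher. The WRKY list had 2 of 6 lower, leaf senescence 1 of 4, pattern-triggered immunity 1 of 6, and sugar starvation and dark 1 of 2, while salicylic acid defence (1 measured), jasmonate (1) and touch, wound and handling (4) had no gene past the threshold. Of these last 3 lists, each had 1 gene lower and 0 higher at an unadjusted p under 0.05. Over all probe sets, 14.2% were lower and 15.3% higher at that level. For salicylic acid defence and jasmonate it was the only gene measured. APL3, the lower gene of the starvation list, was picked by the rule on the same contrast, so nothing is read from that list's count. WRKY53, lower by limma, was kept out of the set by its spread in WT, with 5.12, 4.99 and 4.74 in atrap, against 6.23, 7.54 and 8.69 in WT. Coverage was too thin to describe these pathways.

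Tissue markers were thinly covered too, with 7 genes measured. The mesophyll marker RCA, an activator of Rubisco, read 14.91 in atrap and 14.91 in WT, and its signal was near the top of the array's range. The guard cell gene FMA (FAMA) differed by 0.14 and root genes EXPA7, EXPA18 and GLR3.6 by 0.24, -0.05 and 0.07, and 0 of these 4 passed by limma (1 of them, EXPA7, had an unadjusted p of 0.0226). The trichome gene TRY was lower by limma, at 7.89 in atrap and 8.34 in WT (adjusted p = 0.0435). AGL65 of the pollen and flower list was higher by limma, by 0.29 (adjusted p = 0.0382). No gene of the epidermis, phloem or seed lists was measured, and the part of these cell types in the results was not tested.

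The manufacturer's control probe sets ran lower in atrap as well. Of 64, 29 were lower without overlap and 0 were higher without overlap, with a median difference of -0.20 and a lowest of -0.65, while 16.5% of the probe sets compared were lower without overlap and 19.1% higher. Of the 64, 0 reached -1. Their part in the differences of the members was not tested.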

How the data were processed

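Rosette leaf RNA of 3 atrap and 3 WT samples was measured on Affymetrix arrays. The deposited values are log2 levels per probe set from the authors' RMA processing, as the submitters' processing notes name it, and neither software nor version is given in the sources used here. RMA corrects background, makes the arrays' distributions equal and summarises the probes of a set, and it compresses low signals.

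Of 22810 probe sets, 64 manufacturer controls were left out and 22746 compared, with no further filter. Probe sets were named through GEO's platform annotation, and 13513 had 1 gene, 503 several and 8730 none. Of the 13513, 13436 matched the TAIR10.1 gene table by identifier. That table was used for names and gene order only, since the files name no build, so no coordinates are printed. Families and roles were assigned by hand, so their shares among all probe sets were not counted. The members and lists were chosen with earlier results of these data known.

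Differences are atrap mean minus WT mean, and SD is over 3 arrays. A linear model with moderated variance (limma 3.58.1, R 4.3.3) was fitted on all 22746, and calls had a Benjamini-Hochberg adjusted p under 0.05. Tested on simulated data, it recovered 96.1% of 200 log2 changes of -2 for atrap minus WT among 22746 probe sets, with 3.51% false calls. The simulated noise was independent between probe sets and arrays. Smaller changes, such as the members' median of -1.19, were not simulated, so these rates do not describe the calls made here. Named members are the 12 genes with the lowest differences and up to 6 of each role class, and a gene named beside these was chosen after its values were seen. Tables and figures were made with Python 3.11.15, pandas 2.3.3 and matplotlib 3.10.9. Alternatives covered normalization, filters on dim probe sets, the limits of the rule, each array left out, the replicate number as a block and limma's settings. Same-numbered samples did not deviate together, so the main design has no block.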

Additional observations from a re-analysis of the deposited data

How the results depend on the processing

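The count of 135 members depended on the limits of the rule: 302 met it with a difference of -0.8 or less, 67 with -1.2 or less, 230 with a range of at most 1.5 and 366 with no limit on the range, while keeping only the brightest probe set of each single gene left 69. The median difference, -1.19, was -0.98 with the limit at -0.8 and -1.39 with the limit at -1.2, which follows from the limits. Quantile normalization gave 125 members, median centring 115, the filter at log2 6 gave 125, a range of at most 0.75 gave 96 and a space of at least 0.5 gave 111. With each array left out, the count ran from 136 to 371, with 371 reached without WT replicate 1, and the median difference ran from -1.29 to -1.16. Fewer arrays make the limits on range and space easier to meet.

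By limma, 1457 probe sets were lower in atrap, 725 among the brightest of single genes, 170 at an adjusted p of 0.01, 245 with a log2 change of -1 or less and 2592 with array weights. With 1 array left out the count ran from 176 (without atrap replicate 1) to 1832 (without WT replicate 1), with 310 without atrap replicate 3, 225 without WT replicate 2 and 686 without WT replicate 3. Median centring turned the calls from 1524 higher and 1457 lower into 1979 higher and 1224 lower. With the replicate block, 1014 were lower, 918 of them shared with the 1457. The deviations of same-numbered samples correlated at 0.13, 0.02 and -0.15, so the numbers were not taken as pairs. Apart from smaller numbers of probe sets, arrays or calls by construction, the cause was not tested. Values under log2 6 are compressed, which limits what dim probe sets can show.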
